A study of Homo sapiens with 6 samples.

Results

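The genes described here are 50 that act in G2 and mitosis, taken as named members and looked up by exact gene symbol in the platform annotation of the array. Of the 50, 49 had rows that name that gene alone, out of 22085 genes measured in all. BUB1B, the checkpoint kinase BUBR1, was named only on 96 rows that also name PAK6, so no value is given for it. The 49 genes rested on 2240 rows (exon regions and exon junctions), from 16 rows for MAD2L1 to 109 for CENPE with a median of 45, and the level of a gene is the mean log2 intensity over its rows.

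RNA was measured in BT549-pTripZ-200c cells, a subline of the human triple-negative breast cancer line BT549 with an inducible construct for the microRNA miR-200c. The treated group was 3 cultures given doxycycline at 1 µg/mL over 48 h, and the control was 3 untreated cultures of the same cells. Both groups carried the construct and grew attached in RPMI with serum, and the labels do not say whether the subline is a single clone. No group received doxycycline without the construct, so an effect of the drug and one of the microRNA cannot be told apart. The cultures were plated in triplicate from one subline, so p-values and SDs describe the spread between such cultures, and the number of arrays limits the precision of every value.

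MIR200C, on 1 row, read 9.50, 9.53 and 9.55 on the doxycycline arrays, against 4.67, 5.15 and 5.07 on the untreated arrays (log2 intensity). ZEB1, a transcription factor gene that miR-200c is known to repress, averaged 6.72 ± 0.023 in doxycycline and 7.49 ± 0.044 untreated (SD, n = 3 each), and fell by 0.77 on the log2 scale. The mesenchymal genes VIM, FN1, CDH2, SPARC and CAV1 together averaged 9.82 to 9.85 on the doxycycline arrays and 9.94 to 9.98 on the untreated ones. Among them FN1 and SPARC fell by 0.41 and 0.23, CDH2 rose by 0.15, and VIM and CAV1 did not pass. ESR1, PGR, GATA3 and EPCAM, and the 8 measured markers of blood, endothelium and fat, had means inside the range of the background rows of the array, which ran from 4.10 to 6.36. Of these EPCAM rose by 0.49 within that range (adjusted p = 8.84e-04). Pairs of arrays correlated at 0.994 or above over genes. The part of these marker changes in the other results was not tested.

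Cells pass from G2 into mitosis when cyclin B with CDK1 is released from the inhibitory kinases WEE1 and PKMYT1 by the CDC25 phosphatases. Aurora and Polo-like kinases then build the spindle, kinetochores attach chromosomes to it, and the checkpoint proteins hold back the ubiquitin ligase APC/C until all are attached. The genes for these proteins are switched on together late in the cell cycle, through promoters with CCAAT boxes bound by NF-Y and a CHR element (cell cycle genes homology region) bound by the MuvB core with B-MYB and FOXM1, or by the repressive DREAM complex.

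The microRNA is shown first, since its induction is the treatment. The mature strand hsa-miR-200c-3p, from RefSeq on GRCh38.p14 at chr12:6963742-6963764 on the plus strand, has its seed (bases 2 to 8) in capitals.
hsa-miR-200c-3p: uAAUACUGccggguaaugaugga

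Promoters are shown for 5 genes that rose and hold both motifs, in order of p, and for the 2 that fell. Both motifs were found in 28 of the 40 genes of the set that have a window, so not all of them share these elements. Each is a RefSeq window of 300 bases on GRCh38.p14, from 250 bases before to 50 bases after a transcription start, read 5′ to 3′ on the strand of the gene. CDC25C and CDC25B have 4 windows each, and the other genes shown have 1. Where a gene has several, the first along the chromosome that holds both motifs is shown. Capitals mark CHR matches (TTTGAA or TTCGAA) and CCAAT matches, on either strand. The windows lie at chr5:138331755-138332054 on the minus strand (CDC25C), chr15:59104896-59105195 on the plus strand (CCNB2), chr15:41332631-41332930 on the plus strand (NUSAP1), chr5:163460382-163460681 on the plus strand (HMMR), chr17:40417847-40418146 on the minus strand (TOP2A), chr20:3796060-3796359 on the plus strand (CDC25B) and chr1:200620702-200621001 on the minus strand (KIF14).
CDC25C: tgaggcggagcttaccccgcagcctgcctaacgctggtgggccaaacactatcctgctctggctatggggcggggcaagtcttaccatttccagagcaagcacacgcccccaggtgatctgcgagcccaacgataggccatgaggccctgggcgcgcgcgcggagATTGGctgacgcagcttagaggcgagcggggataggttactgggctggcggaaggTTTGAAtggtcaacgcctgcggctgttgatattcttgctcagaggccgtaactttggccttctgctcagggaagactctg
CCNB2: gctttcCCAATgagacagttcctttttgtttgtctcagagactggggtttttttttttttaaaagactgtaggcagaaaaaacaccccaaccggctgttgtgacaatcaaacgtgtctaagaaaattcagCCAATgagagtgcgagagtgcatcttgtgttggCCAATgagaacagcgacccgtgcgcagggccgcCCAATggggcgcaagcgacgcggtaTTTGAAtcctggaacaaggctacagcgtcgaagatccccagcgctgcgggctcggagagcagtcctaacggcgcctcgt
NUSAP1: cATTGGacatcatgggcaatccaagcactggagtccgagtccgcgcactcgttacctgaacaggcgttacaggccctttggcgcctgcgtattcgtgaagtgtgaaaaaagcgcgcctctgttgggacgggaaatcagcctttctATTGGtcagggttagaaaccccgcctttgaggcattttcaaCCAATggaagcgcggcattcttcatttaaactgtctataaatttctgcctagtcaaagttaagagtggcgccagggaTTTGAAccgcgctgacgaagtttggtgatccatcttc
HMMR: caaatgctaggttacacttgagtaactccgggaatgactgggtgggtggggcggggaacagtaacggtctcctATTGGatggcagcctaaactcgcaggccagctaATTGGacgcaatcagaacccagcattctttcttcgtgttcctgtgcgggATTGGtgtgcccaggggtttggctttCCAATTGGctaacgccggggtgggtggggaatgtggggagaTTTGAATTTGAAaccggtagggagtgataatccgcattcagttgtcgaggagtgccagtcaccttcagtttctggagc
TOP2A: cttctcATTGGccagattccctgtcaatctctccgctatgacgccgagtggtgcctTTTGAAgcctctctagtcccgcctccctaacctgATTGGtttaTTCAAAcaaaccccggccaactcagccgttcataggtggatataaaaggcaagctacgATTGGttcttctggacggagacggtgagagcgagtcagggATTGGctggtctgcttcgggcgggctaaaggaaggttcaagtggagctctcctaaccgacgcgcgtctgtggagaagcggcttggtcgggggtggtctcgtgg
CDC25B: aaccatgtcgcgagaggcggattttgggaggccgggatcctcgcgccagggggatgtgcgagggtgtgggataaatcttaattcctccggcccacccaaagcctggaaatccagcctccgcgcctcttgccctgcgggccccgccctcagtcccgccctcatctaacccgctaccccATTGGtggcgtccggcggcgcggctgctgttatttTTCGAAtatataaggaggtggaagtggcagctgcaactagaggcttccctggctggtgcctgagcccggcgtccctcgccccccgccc
KIF14: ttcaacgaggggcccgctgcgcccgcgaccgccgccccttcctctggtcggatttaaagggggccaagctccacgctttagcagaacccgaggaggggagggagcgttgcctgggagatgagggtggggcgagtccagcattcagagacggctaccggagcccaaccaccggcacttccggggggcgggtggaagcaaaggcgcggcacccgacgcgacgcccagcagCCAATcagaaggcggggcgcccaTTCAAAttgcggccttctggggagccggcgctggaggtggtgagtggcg
In CDC25C the CHR match starts 30 bases before the transcription start and the CCAAT match, here read on the opposite strand as ATTGG, 85 bases before it. CCNB2 has the same layout, with the CHR match 29 bases before the start and 4 CCAAT matches further out. In HMMR the CHR matches start 28 and 22 bases before the start, also with CCAAT matches further out. Other windows differ. In NUSAP1 and KIF14 the CHR match lies after the start, from bases 14 and 2. TOP2A has CHR matches 194 and 151 bases before the start, with CCAAT matches on both sides of them. In the window shown for CDC25B, which fell, a CHR match of the form TTCGAA lies 38 bases before the start and a CCAAT match 73 bases before it. Both motifs are thus present in windows of genes that moved in opposite directions. Of the 5 windows of the 2 genes that fell, 2 hold both motifs.

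Windows were found for 40 of the 49 genes. TPX2, BUB3, AURKA, PKMYT1, FOXM1, WEE1, BIRC5, TTK and UBE2C had none. A CHR match was present in 32 of the 40 genes, against 19.5% of the 27305 genes with a window. CCAAT was present in 35 of 40, against 39.7% of all, and both motifs in 28 of 40, against 7.85% of all. A gene counts when any of its windows holds the motif, and in 2 windows of these genes a CHR and a CCAAT match overlap. Both motifs were found in 9 of the 12 genes with a window that rose, in both that fell and in 17 of the 26 that did not pass. A match of letters is a description and shows no binding.

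Most G2 and mitosis genes were slightly higher in doxycycline than untreated, and a few were lower. Of the 49 genes 14 rose, 2 fell and 33 did not pass the test (limma, Benjamini-Hochberg adjusted p under 0.05 over all 22085 genes). The genes that rose were HMMR, WEE1, CENPF, CDC25C, NUSAP1, CCNB2, TOP2A, KIF20A, NEK2, PRC1, CEP55, KIF4A, PTTG1 and AURKA, by 0.13 to 0.35 on the log2 scale, or 1.09-fold to 1.28-fold. CDC25B and KIF14 fell by 0.26 and 0.25. Over all genes 9.9% passed, 6.06% rising and 3.84% falling in the same test, so that the 28.6% of these genes that rose lies above the share over all genes, and the 4.08% that fell is near it. Among the 3704 genes with a mean above 8, where 43 of the 49 lie, 17.3% passed, 10.3% rising and 7.07% falling, and the 43 held 13 of the rises and both falls. The median log2 change was 0.15 over the 49 genes and -0.01 over all genes, and 44 of the 49 changes were above 0, as were 44.9% of all.

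**Figure D1:**
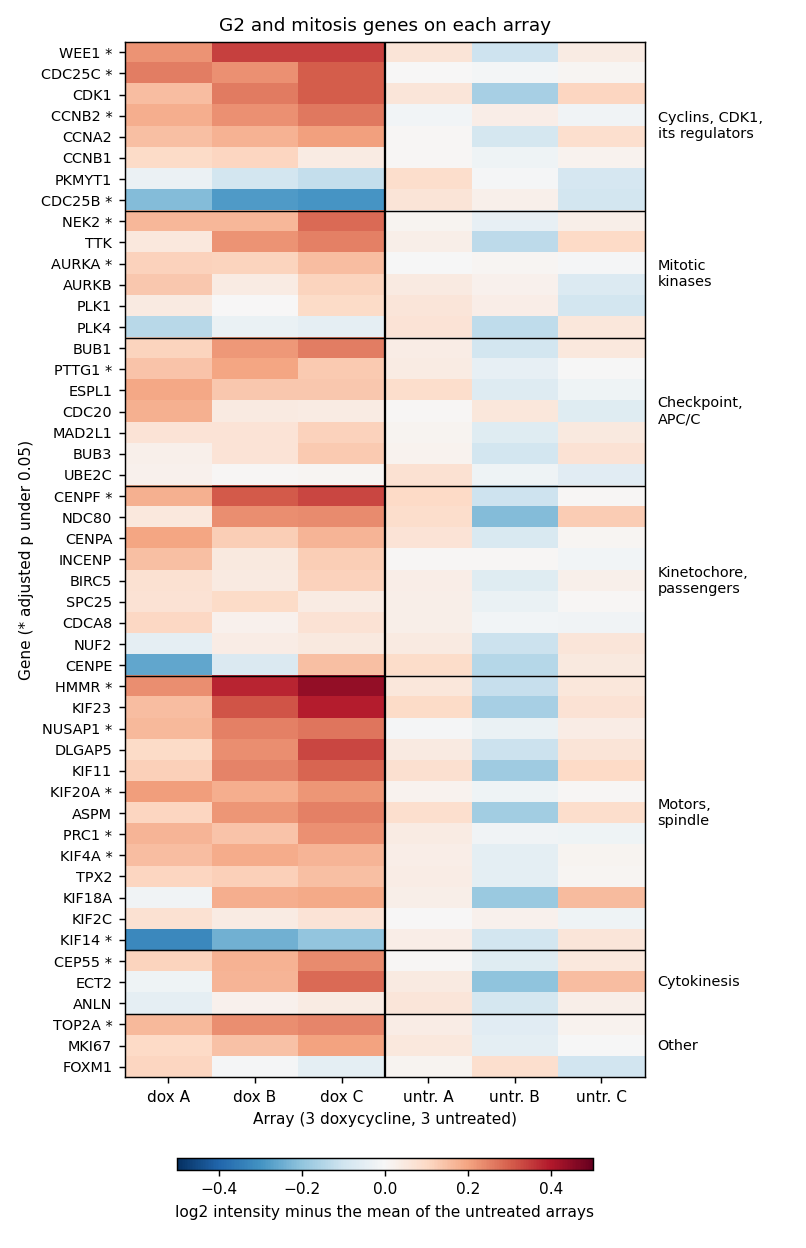
Log2 intensity of each of the 49 genes (rows, grouped by role) on each of the 6 arrays (columns, doxycycline left of untreated), minus the mean of the 3 untreated arrays for that gene. Red runs through the doxycycline columns for most genes, while CDC25B and KIF14 are blue there, and untreated array B is pale blue in most rows.

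The count depended on single arrays and on which rows were averaged. Without doxycycline replicate B or C 7 genes rose (3.68% and 3.64% of all genes), without untreated replicate B or C 9 did (4.97% and 4.45% of all genes), and the 2 falls became 1 without doxycycline replicate A or B or untreated replicate A or C. With the median row of each gene in place of the mean, NEK2 alone rose and none fell, against 1.95% and 1.20% of all genes. With junction rows alone CDC25C rose and CDC25B fell, against 2.62% and 1.44% of the 18769 genes with such rows. Under both settings the share of these genes that rose was near that over all genes. With rows above a mean of 8 alone, 5 of the 49 rose and 1 fell, against 5.49% and 3.95% (9.44% together) of the 13399 genes with such rows. The 6 were CCNB2, CDC25C, WEE1, KIF20A, NUSAP1 and, falling, CDC25B, and these 6 also passed in each of the 6 fits that left out 1 array. Of the other genes that rose, HMMR and TOP2A passed in 5 of those fits, PRC1 in 4, NEK2 and KIF4A in 3, CENPF in 2, PTTG1 and CEP55 in 1 and AURKA in none. In bulk RNA, more cells in G2 and mitosis and more RNA of these genes per cell cannot be told apart.

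The treated arrays stood above the untreated ones in more genes than passed the test. In 31 of the 49 the lowest doxycycline array was above the highest untreated array, and in 2 the highest doxycycline array was below the lowest untreated one, against 14.3% and 11.8% of all genes. Of these 31, 17 did not pass. The mean over the 49 genes was 9.36, 9.40 and 9.43 on doxycycline arrays A, B and C, against 9.32, 9.21 and 9.30 on untreated arrays A, B and C. By the median over the 49 genes the groups overlapped. It was 9.510, 9.665 and 9.665 on the doxycycline arrays, against 9.514, 9.433 and 9.544 on the untreated ones. Untreated array B was the lowest of its group in 36 of the 49 genes (73.5%, against 35.6% of all genes). Doxycycline array A was the lowest of its group in 28 (57.1%, against 32.0% of all genes). These genes thus also differed together between arrays of 1 group, and the part of this in the group difference was not tested. Without untreated replicate B the median change of the 49 genes was 0.11.

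**Figure D2:**
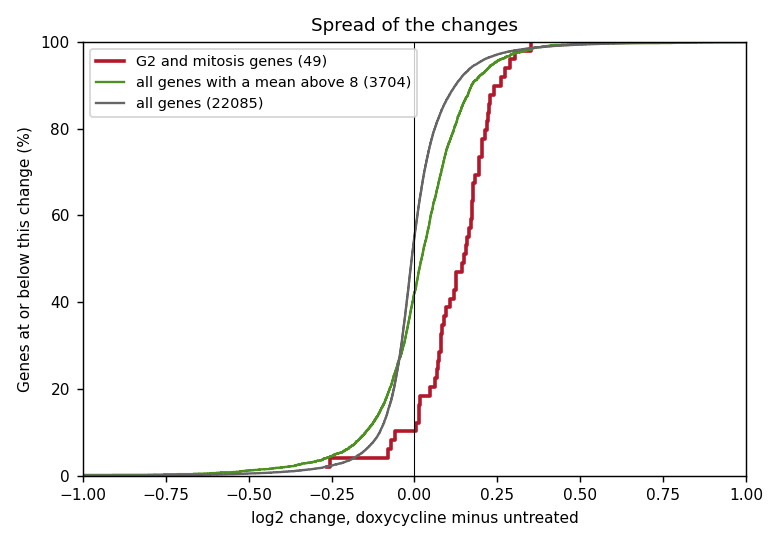
Cumulative share of genes (vertical axis, percent) at or below each log2 change, doxycycline minus untreated (horizontal axis), for the 49 G2 and mitosis genes, the 3704 genes with a mean above 8 and all 22085 genes. The curve of the 49 genes lies to the right, with a median of 0.15 against -0.01 for all genes.

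Among the cyclins, CDK1 and its direct regulators, 3 of 8 rose and 1 fell (37.5% and 12.5%, against 6.06% and 3.84% of all genes). The median change of this group was 0.20. CCNB2, a mitotic B-type cyclin gene, read 9.23, 9.27 and 9.31 in doxycycline, against 9.03, 9.08 and 9.03 untreated. It rose by 0.22 (SE 0.036, adjusted p = 0.00540), with all doxycycline arrays above all untreated ones. CCNB1, the main partner of CDK1 at mitotic entry, read 10.18, 10.19 and 10.12 in doxycycline, against 10.09, 10.06 and 10.10 untreated, and its change of 0.08 did not pass (adjusted p = 0.213, 95% interval 0.00 to 0.16). Its groups do not overlap, but they lie closer together than those of CCNB2; the difference between the 2 changes was not tested. CCNA2, the cyclin of S phase and G2, had a change of 0.18 and just missed the threshold (adjusted p = 0.0536). CDK1 itself read 8.38, 8.48 and 8.52 in doxycycline, against 8.28, 8.06 and 8.33 untreated, a change of 0.24 (adjusted p = 0.0783). By the median row the change of CDK1 was 0.75 (adjusted p = 0.356), and with rows above 8 alone 0.38 (adjusted p = 0.165). The untreated arrays of CDK1 were spread by an SD of 0.14, with array B the low one.

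The kinases and phosphatases that set the activity of CDK1 moved in different directions. WEE1, whose product holds CDK1 inactive by phosphorylation, read 8.49, 8.60 and 8.60 in doxycycline, against 8.32, 8.16 and 8.30 untreated. It rose by 0.30 (1.23-fold, SE 0.054, adjusted p = 0.00921). CDC25C, whose product removes that phosphate at the entry into mitosis, read 7.97, 7.94 and 8.02 in doxycycline, against 7.72, 7.71 and 7.73 untreated, and rose by 0.26 (1.20-fold, SE 0.034, adjusted p = 0.00191), the smallest adjusted p among the 49. The inhibitor and this activator were thus both higher, and neither group of arrays overlapped the other in either gene. CDC25B, the phosphatase thought to start CDK1 activation at the centrosome, read 8.82, 8.76 and 8.74 in doxycycline, against 9.11, 9.06 and 8.95 untreated. It fell by 0.26 (0.832-fold, SE 0.048, adjusted p = 0.00947), again with no overlap. PKMYT1, the membrane-bound relative of WEE1, averaged 5.93 ± 0.045 in doxycycline and 6.01 ± 0.086 untreated over its 40 rows, both inside the background range. The 6 of these rows above 8 averaged 8.90 in doxycycline and 8.94 untreated, a change of -0.05 that did not pass (adjusted p = 0.687).

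**Figure D3:**
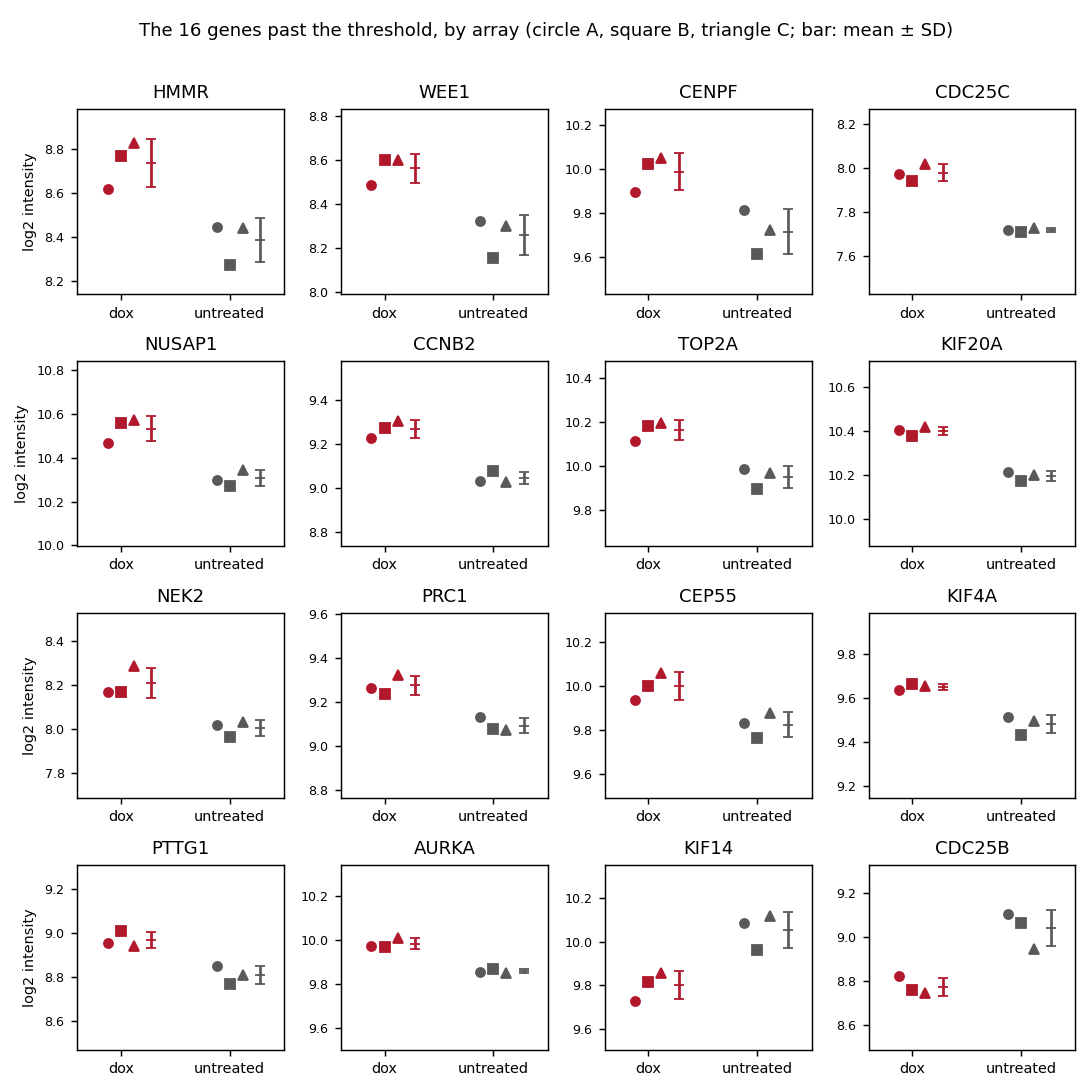
Log2 intensity (vertical axes, each spanning the same range of log2 units) of the 16 genes that passed the test, with the doxycycline arrays in red at left and the untreated arrays in grey at right; symbols mark replicates A, B and C, and bars give the mean ± SD of 3 arrays. In each panel the groups do not overlap, and CDC25B and KIF14 alone are lower in doxycycline.

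Of 6 mitotic kinase genes 2 rose (33.3%, against 6.06% of all genes) and none fell (against 3.84%), with a median change of 0.11. NEK2, whose product separates the centrosomes, read 8.17, 8.17 and 8.28 in doxycycline, against 8.02, 7.96 and 8.03 untreated, and rose by 0.20 (adjusted p = 0.0198). AURKA, the Aurora kinase of the spindle poles, read 9.97, 9.97 and 10.01 in doxycycline, against 9.85, 9.87 and 9.85 untreated. It rose by 0.13 (SE 0.032, adjusted p = 0.0424), the smallest rise that passed, and with any 1 array left out it did not pass. AURKB, the Aurora kinase of the chromosomal passenger complex, read 8.97, 8.88 and 8.95 in doxycycline, against 8.89, 8.86 and 8.77 untreated, which is a change of 0.10 (adjusted p = 0.250). PLK1, the main Polo-like kinase, read 10.93, 10.89 and 10.98 in doxycycline, against 10.94, 10.92 and 10.79 untreated. For both AURKB and PLK1 the groups overlapped, and for PLK1 the 95% interval of the change ran from -0.06 to 0.16. The checkpoint kinase gene TTK had a change of 0.18 (adjusted p = 0.186), and PLK4, which starts centriole copying, one of -0.07 (adjusted p = 0.573).

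In the group of the spindle checkpoint, APC/C and chromatid separation 1 of 7 measured genes rose (14.3%) and none fell. Over all genes 6.06% rose and 3.84% fell. The share that rose was near the 10.3% among genes with a mean above 8. All 7 changes were above 0. PTTG1, the gene of securin, which holds separase back until anaphase, read 8.95, 9.01 and 8.94 in doxycycline, against 8.85, 8.77 and 8.81 untreated, and rose by 0.16 (adjusted p = 0.0318), a call that passed in 1 of the 6 fits with 1 array left out. ESPL1, the gene of separase, changed by 0.15 (adjusted p = 0.0726), and its groups did not overlap. BUB1, a checkpoint kinase at the kinetochore, changed by 0.19 (adjusted p = 0.0548). BUB3, its binding partner, read 9.12, 9.16 and 9.23 in doxycycline, against 9.11, 9.00 and 9.17 untreated, with overlapping groups and an adjusted p of 0.475. MAD2L1, the checkpoint protein MAD2, CDC20, the APC/C activator, and UBE2C, its ubiquitin-conjugating enzyme, had changes of 0.08, 0.09 and 0.01, with adjusted p from 0.268 to 0.907. By the median row the changes of these genes were 0.23, 0.22 and 0.37, and with rows above 8 alone 0.18, 0.13 and 0.09. None of these passed.

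Of 9 genes of the centromere, the kinetochore and the passenger complex 1 rose (11.1%) and none fell, with a median change of 0.08. Over all genes 6.06% rose and 3.84% fell. The share that rose was near the 10.3% among genes with a mean above 8. CENPF, a large protein of the outer kinetochore, read 9.89, 10.02 and 10.05 in doxycycline, against 9.81, 9.61 and 9.72 untreated. It rose by 0.27 (1.21-fold, SE 0.060, adjusted p = 0.0241), and it passed in 2 of the 6 fits with 1 array left out. CENPE, a kinetochore motor gene with the most rows of the set, had the widest spread, with 9.43, 9.62 and 9.84 in doxycycline, against 9.78, 9.55 and 9.74 untreated. Its doxycycline arrays spanned the whole untreated range, and the SD among them was 0.20. The microtubule-binding kinetochore genes NDC80, NUF2 and SPC25 had changes of 0.17, 0.01 and 0.07 (adjusted p = 0.332, 0.911 and 0.299). CENPA, the centromeric histone, changed by 0.16 (adjusted p = 0.0564). The passenger complex genes INCENP, BIRC5 (survivin) and CDCA8 (borealin) changed by 0.11, 0.08 and 0.07, and none passed.

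Of the 13 motors and spindle proteins, the largest group, 5 rose and 1 fell, with a median change of 0.19. The share that rose, 38.5%, was near the 37.5% of the cyclin and CDK1 group and above the 6.06% of all genes. The 7.69% that fell was near the 7.07% among genes with a mean above 8, against 3.84% of all genes. HMMR, whose product acts in spindle assembly and also binds hyaluronan, read 8.62, 8.77 and 8.83 in doxycycline, against 8.44, 8.27 and 8.44 untreated, and rose by 0.35 (1.28-fold, SE 0.066, adjusted p = 0.0113), the largest rise among the 49. NUSAP1, a microtubule-binding protein of the spindle, read 10.47, 10.56 and 10.57 in doxycycline, against 10.30, 10.27 and 10.34 untreated, and rose by 0.23 (adjusted p = 0.00929). KIF20A, a motor of the central spindle, read 10.40, 10.38 and 10.42 in doxycycline, against 10.21, 10.17 and 10.20 untreated. These arrays lay close together within each group, with SDs of 0.020 and 0.021, and the rise of 0.20 had an adjusted p of 0.00521. PRC1, which bundles the microtubules of the central spindle, read 9.27, 9.24 and 9.32 in doxycycline, against 9.13, 9.08 and 9.07 untreated, and rose by 0.18 (adjusted p = 0.0182). KIF4A, a chromosome-bound motor that works with PRC1, read 9.64, 9.66 and 9.65 in doxycycline, against 9.51, 9.43 and 9.49 untreated, and rose by 0.17 (adjusted p = 0.0182). In all 5 the doxycycline arrays were above the untreated ones.

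KIF14, a motor of cytokinesis that also binds PRC1, went the other way. It read 9.73, 9.81 and 9.86 in doxycycline, against 10.09, 9.96 and 10.12 untreated, and fell by 0.25 (0.839-fold, SE 0.051, adjusted p = 0.0166). All doxycycline arrays were below all untreated ones, and the fall passed in 2 of the 6 fits with 1 array left out. KIF23, the motor of the centralspindlin complex, had a change of 0.29 that did not pass (adjusted p = 0.0622), with no overlap. KIF11 (the spindle motor Eg5), DLGAP5 (a spindle microtubule stabiliser) and ASPM (a spindle pole protein) had changes of 0.22, 0.22 and 0.19 without overlap (adjusted p = 0.130, 0.0820 and 0.160). TPX2, an activator of Aurora A, changed by 0.12 (adjusted p = 0.0707). KIF2C and KIF18A, which shorten or cap microtubules, changed by 0.06 and 0.12, with adjusted p of 0.341 and 0.536.

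Of the 3 cytokinesis genes CEP55, needed for the final cut between daughter cells, read 9.93, 10.00 and 10.06 in doxycycline, against 9.83, 9.76 and 9.88 untreated. It rose by 0.17 (adjusted p = 0.0480), near the threshold, and passed in 1 of the 6 fits with 1 array left out. ECT2, which activates RhoA at the cell equator, changed by 0.14 (adjusted p = 0.496), and ANLN, the scaffold anillin, by 0.01 (adjusted p = 0.964). For ANLN the 95% interval was -0.10 to 0.11.

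TOP2A, the topoisomerase that untangles sister chromatids, read 10.11, 10.18 and 10.19 in doxycycline, against 9.98, 9.89 and 9.97 untreated, and rose by 0.21 (adjusted p = 0.0114). MKI67, the gene of the proliferation marker Ki-67, read 10.09, 10.14 and 10.19 in doxycycline, against 10.04, 9.94 and 9.99 untreated, which is a change of 0.15 (adjusted p = 0.0607). Its groups were separate, yet it did not pass. FOXM1, the transcription factor that drives many of these genes, read 9.82, 9.71 and 9.67 in doxycycline, against 9.73, 9.80 and 9.62 untreated. The groups of FOXM1 overlapped, and the change of 0.02 turned sign without doxycycline replicate A or untreated replicate C (-0.03 in both). With all arrays its adjusted p was 0.905, with a 95% interval of -0.11 to 0.15.

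**Figure D4:**
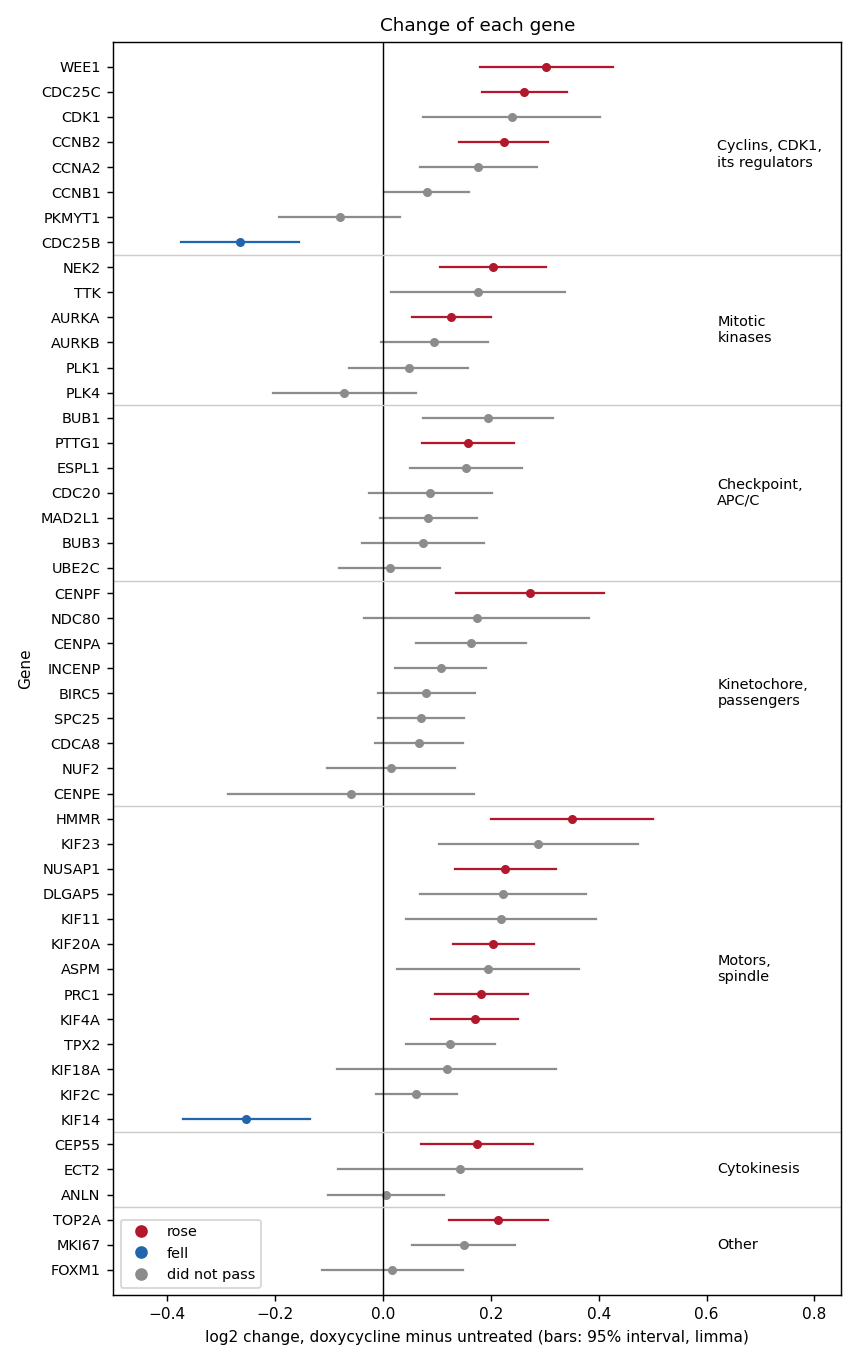
Log2 change of each of the 49 genes, doxycycline minus untreated (horizontal axis), grouped by role, with 95% intervals from the limma fit on 3 arrays a group. Red points are the 14 genes that rose, blue the 2 that fell and grey the 33 that did not pass; 44 points lie to the right of 0.

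Few single rows of these genes passed the test. Of the 2240 rows of the 49 genes 2 rose over all 924687 rows tested and none fell, against 0.451% and 0.277% of all rows (0.728% together); at an unadjusted p under 0.05, 398 rows (17.8%) were higher and 101 (4.51%) lower, against 5.52% and 4.62% of all rows, so the share of lower rows was near that over all rows. The 2 rows were a junction of CDC25C, at 8.37, 8.27 and 8.66 in doxycycline against 7.52, 7.34 and 7.47 untreated (change 0.99, adjusted p = 0.0228), and an exon region of HMMR, at 10.15, 10.08 and 10.13 against 9.59, 9.56 and 9.65 untreated (change 0.52, adjusted p = 0.0335). With any 1 array left out neither row passed. Of the 1642 rows with a mean above 8, 78.9% were higher in doxycycline, against 53.1% of all such rows that name 1 gene; rows of 1 gene share their RNA and are not replicates.

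Along several genes the direction was nearly uniform. In 10 of the 49 genes every row above 8 was higher in doxycycline. Of these, CCNB2 (15 rows), WEE1 (21), PTTG1 (14), CENPF (39), KIF20A (43) and HMMR (39) rose as genes, while CDK1 (18), BUB1 (53), MAD2L1 (9) and ESPL1 (26) did not pass. CDC25B had 39 of 40 such rows lower and KIF14 53 of 58. CENPE had 64 of 89 lower, with a median row change of -0.08. Over these rows HMMR had a median change of 0.43, CDC25B one of -0.35 and KIF14 one of -0.29. Taking exon regions and junctions apart, 46 of the 49 genes had the same direction in both. The matching shares over all genes were not counted, so the 10 and the 46 cannot be set against them. Rows of the same gene share their RNA, so these counts describe the 49 genes and do not set them apart from other genes.

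**Figure D5:**
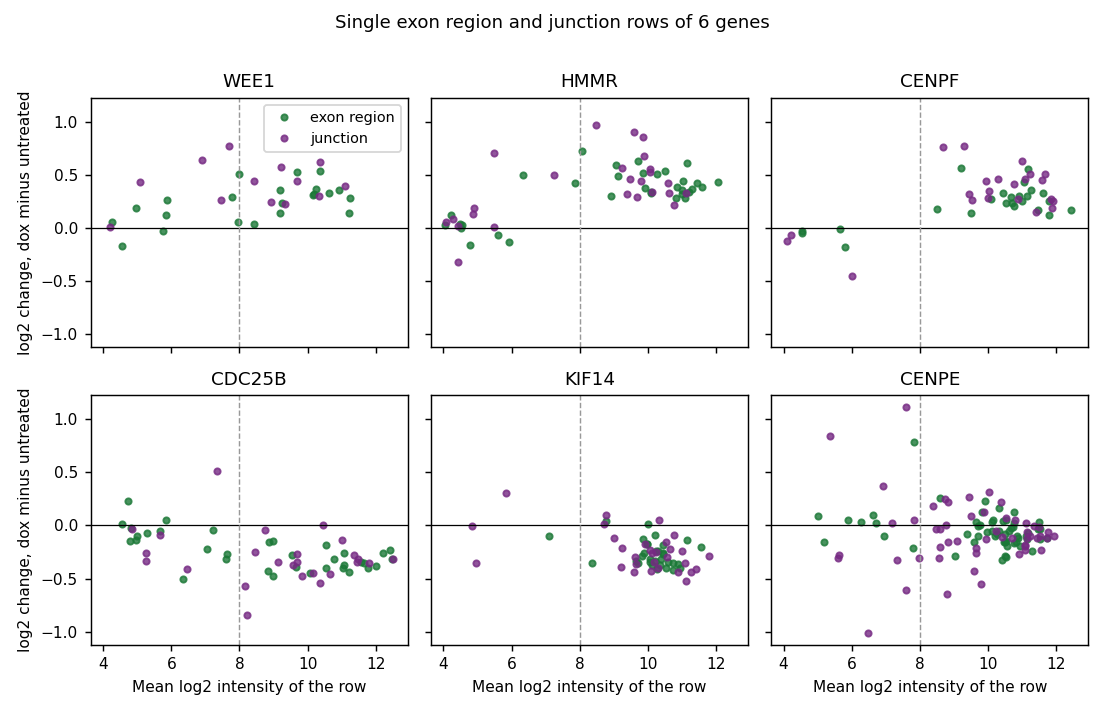
Log2 change of single rows, doxycycline minus untreated (vertical axes), against the mean log2 intensity of the row (horizontal axes) for 6 genes; green points are exon regions, purple points junctions, and the dashed line marks a mean of 8. To its right all rows of WEE1, HMMR and CENPF lie above 0, nearly all of CDC25B and KIF14 below it, and those of CENPE on both sides.

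No row of these genes passed a test of departure from its own gene, although some relative changes were large. When each row above the median row was set against the mean of its gene on the same array, 0 of 1985 rows passed in limma, against 0.144% of the 373199 rows tested (0.0697% rising, 0.0745% falling), and 85 (4.28%) had an unadjusted p under 0.05, against 7.84% of all. The nearest was a junction of ESPL1, whose relative change was -0.95 (adjusted p = 0.0728). A junction each of CENPE and CDC25C followed, with relative changes of -0.96 and 0.68 (adjusted p = 0.127 and 0.134).

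Of 29 further centromere and kinetochore genes 2 rose and none fell, with a median change of 0.12. The share that rose was near the 6.06% over all genes, while 24 of the 29 changes were above 0, against 44.9% over all genes. The genes that rose were SPC24, a partner of SPC25 (change 0.21, adjusted p = 0.0336), and OIP5, which helps load CENPA (change 0.44, adjusted p = 0.0450). Of 26 further spindle and cytokinesis genes 4 rose and 1 fell (15.4% and 3.85%), and 22 changes were above 0. SHCBP1, a partner of centralspindlin, read 8.72, 8.70 and 8.74 in doxycycline, against 9.34, 9.18 and 9.40 untreated, and fell by 0.58 (adjusted p = 3.36e-04). DEPDC1 rose by 0.40 (adjusted p = 0.00164) and the motor gene KIF15 by 0.24 (adjusted p = 0.0182). The change of SHCBP1 was larger in size than that of any of the 49, and in the direction of CDC25B and KIF14.

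Of 21 cohesin and condensin genes 4 rose (19.0%, against 6.06% of all genes) and none fell (against 3.84% of all genes). NCAPD3, a condensin subunit, was higher by 0.21 (adjusted p = 0.00662). SGO1 (SGOL1 in the annotation), the protector of centromeric cohesion, rose by 0.23 (adjusted p = 0.0199), and the condensin gene NCAPD2 by 0.17 (adjusted p = 0.0350). Of 17 genes of the APC/C and its regulators 1 rose and 1 fell, 5.88% each way, which is near the shares over all genes. CDC26 rose by 0.24 (adjusted p = 0.00421) and ANAPC13 fell by 0.32 (adjusted p = 0.00158). The medians of these groups were 0.09 and 0.04, and 16 of the 21 and 12 of the 17 changes were above 0, against 44.9% over all genes.

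Regulators of late cell cycle transcription included 5 that rose and 1 that fell of 21 (23.8% and 4.76%, against 6.06% and 3.84% of all genes). The share that fell was near that over all genes, and 15 of the 21 changes were above 0. RBL1, the gene of the pocket protein p107, read 8.61, 8.74 and 8.77 in doxycycline, against 9.36, 9.14 and 9.42 untreated, and fell by 0.60 (adjusted p = 0.00143). E2F8, a repressive E2F factor, rose by 0.34 (adjusted p = 0.00348), and LIN54, the MuvB subunit that contacts the CHR element, by 0.19 (adjusted p = 0.00574). Of 15 CDK inhibitors and G2 brakes 2 rose and 1 fell (13.3% and 6.67%, against 6.06% and 3.84% of all genes). In this list 7 of the 15 changes were above 0. CDKN1B, the inhibitor p27, rose by 0.20 (adjusted p = 0.0133), while GADD45A, a stress sensor that can block CDK1, fell by 0.30 (adjusted p = 0.00193). SFN, the protein 14-3-3 sigma that can hold cyclin B and CDK1 in the cytoplasm, rose by 0.50 (adjusted p = 3.49e-04) with its untreated mean in the background range, and with rows above 8 alone its change was -0.23 (adjusted p = 0.475).

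Genes of G1/S control and DNA replication, the nearest gene group, rose in 5 and fell in 2 of 47 cases (10.6% and 4.26%). Their median change was 0.06, and 37 of the 47 changes were above 0, against 44.9% over all genes. Most genes of this group were thus also slightly higher in doxycycline. Over all genes 6.06% rose and 3.84% fell, so the share of this group that fell was near that over all genes. CCND1, cyclin D1, rose by 0.38 (adjusted p = 6.88e-04). CDK2 read 9.07, 9.07 and 9.07 in doxycycline, against 9.51, 9.48 and 9.43 untreated, and fell by 0.40 (adjusted p = 2.16e-04), and MCM10, a replication initiation factor, fell by 0.22 (adjusted p = 0.0227). The difference between this group and the 49 was not tested, and the lists were chosen with results of these arrays known.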

How the data were processed

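Arrays were 6, 3 in doxycycline and 3 untreated. Each row (probe set) of the deposited table holds a log2 intensity per array; the scale was read from their range, and Partek is named, without role or version, per the submitters' processing notes. How the background was corrected, the normalization and the build: not given in the sources used here. The labelling kit named per the labels, FlashTag, is usual for small RNA. Of 925032 rows 345 control rows were left out. Rows with exactly 1 gene symbol (672085) were averaged per gene, giving 22085 genes; 39483 rows named several genes and 213119 none. Column medians ran from 5.18 to 5.21, so no further normalization was applied. Genes and rows were tested with limma 3.58.1 in R 4.3.3 (lmFit, eBayes, group as the single term) with Benjamini-Hochberg adjustment over all features and a threshold of 0.05. The scripts were tested on simulated data.

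Members and lists were chosen with earlier results of these data known. Values on each array are given for genes that passed and for CCNB1, CDK1, PLK1, AURKA, AURKB, MKI67, TOP2A, FOXM1, BUB3 and WEE1; MIR200C and ZEB1 check the induction. Of each other list up to 3 genes that passed, by smallest p, are named; old symbols were matched through RefSeq synonyms. Of rows set against their gene, those that passed were to be named; since none did, the 3 of smallest p are, chosen after their values were seen. Values of CENPE on each array were added after they were seen, for their spread.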

Additional observations from a re-analysis of the deposited data

How the results depend on the processing

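Using the median row of each gene, 1 of the 49 genes rose and 0 fell (431 and 265 of all genes). With rows above 8 the counts were 5 and 1 (736 and 529), and with junction rows alone 1 and 1 (492 and 270). With only genes above the median level 22 rose and 2 fell, against 13.0% and 8.17% of the 11042 genes in that fit. Exon region rows, quantile normalization, centring and a variance trend left 12 to 19 that rose and 2 that fell. In those fits 5.66% to 6.36% of all genes rose and 3.42% to 4.48% fell. Leaving out 1 array gave 7 to 15 that rose and 1 to 2 that fell (804 to 1098 and 494 to 797 of all genes), and a median change of 0.11 to 0.18. Replicate letters did not pair the arrays (deviations from the group means correlated at -0.17, -0.03 and 0.22 for A, B and C, and no doxycycline array matched its own letter best); with the letter as a replicate block 13 rose and 2 fell, and 1148 and 763 of all genes did. Over rows above 8 alone 12 of 1642 member rows rose and 3 fell, and with the replicate block 0 rose. Leaving out 1 array gave 0 in each fit. The shares over all rows were not counted under these settings, so the 12 and 3 cannot be set against them. Rows set against their gene had 0 calls throughout. Among the 23 members that passed or that are named whatever their result, 257 alternative fits kept direction and call, 79 lost the call, 3 gained one and 6 changed sign, the 6 without passing: PLK1 (-0.010) and AURKB (-0.024) with the median of rows, and FOXM1 with rows above 8 (-0.028), junction rows (-0.066), without doxycycline replicate A (-0.028) and without untreated replicate C (-0.031; range -0.031 to 0.059 with 1 array left out). The causes were not tested. The SD within a group had a median of 0.058 over the 49 genes and reached 0.20 for CENPE, so what 3 arrays a group can show differs between genes; the smallest rise that passed was 0.13. Background rows reached 6.36, and the mean of PKMYT1 over all its rows lay inside their range in both groups.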
